A study of Mus musculus with 6 samples.

Results

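The 5 genes of the NF-kB subunits (Nfkb1, Nfkb2, Rel, Rela and Relb) and 4 genes of its inhibitors (Nfkbia, Nfkbib, Nfkbie and Tnfaip3) were followed through the stages of Myc-driven lymphoma in mouse pre-B cells. The members were picked by gene symbol, and these 9 are among 37991 identifiers counted. All 9 passed the filter on low counts, which 16683 genes passed. Poly(A) RNA was sequenced from pre-B cells sorted from bone marrow by flow cytometry for high B220 and low IgM and IgD. The study has 2 libraries of wild type, 2 of premalignant and 2 of malignant cells, from C57BL/6 mice kept as heterozygotes for the Eμ-Myc transgene. Wild type mice lacked the transgene and were aged 4 to 6 weeks. Premalignant mice carried Eμ-Myc on 1 allele at the same age, and malignant mice carried it at 10 to 20 weeks, when they had developed spontaneous lymphoma, so that age and malignancy cannot be told apart. By the study's methods, wild type and premalignant mice were littermates and female, malignant mice were of both sexes, and the sort of malignant cells took B220+ cells negative for IgM and IgD, so sex and gate also differ for the malignant stage. No group was given an agent. The transgene joins Myc to the immunoglobulin heavy chain enhancer Eμ, which acts in the B lineage, so that the model concerns B cells that overexpress Myc from early development.

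NF-kB is a family of dimeric transcription factors first described by their binding to the enhancer of the immunoglobulin kappa light chain gene in B cells. Nfkb1 and Nfkb2 encode precursors that are processed to the DNA-binding subunits p50 and p52, while Rel, Rela and Relb encode the subunits that carry activation domains. The IkB proteins, encoded by Nfkbia, Nfkbib and Nfkbie, hold the dimers in the cytoplasm until the IkB kinase marks them for degradation, and Tnfaip3 encodes A20, a ubiquitin-editing enzyme that limits signalling to that kinase. Several of these inhibitors are themselves NF-kB target genes.

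The promoter windows show which members carry NF-kB consensus letters close to their start, and the Rela window is given as one without them. The windows are from RefSeq (GRCm38.p6 table, 250 bases before to 50 after the start) and run 5′ to 3′ on the strand of the gene. Where a gene has several windows in the table, as Nfkb2 (3) and Tnfaip3 (2) do, the most upstream was used. Capitals mark matches to the NF-kB consensus, searched on both strands with overlapping matches joined. Each window matched the NCBIM37 (mm9) genome once, at chr19:46378977-46379276 (Nfkb2, plus strand), chr11:23670920-23671219 (Rel, minus), chr12:56593585-56593884 (Nfkbia, minus), chr17:45692399-45692698 (Nfkbie, plus), chr10:18735167-18735466 (Tnfaip3, minus) and chr19:5637291-5637590 (Rela, plus).
Nfkb2: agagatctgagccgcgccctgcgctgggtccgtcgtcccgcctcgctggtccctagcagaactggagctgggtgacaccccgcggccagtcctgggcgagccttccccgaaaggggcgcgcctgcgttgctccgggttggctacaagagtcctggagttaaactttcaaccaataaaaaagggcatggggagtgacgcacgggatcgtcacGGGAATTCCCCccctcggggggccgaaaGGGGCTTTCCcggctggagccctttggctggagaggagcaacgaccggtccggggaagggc
Rel: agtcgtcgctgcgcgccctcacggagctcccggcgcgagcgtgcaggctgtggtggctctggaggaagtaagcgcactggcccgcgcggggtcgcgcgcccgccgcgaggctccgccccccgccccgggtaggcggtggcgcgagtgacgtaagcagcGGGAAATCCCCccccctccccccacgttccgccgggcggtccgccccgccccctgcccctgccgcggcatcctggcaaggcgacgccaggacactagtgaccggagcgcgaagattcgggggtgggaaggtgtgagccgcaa
Nfkbia: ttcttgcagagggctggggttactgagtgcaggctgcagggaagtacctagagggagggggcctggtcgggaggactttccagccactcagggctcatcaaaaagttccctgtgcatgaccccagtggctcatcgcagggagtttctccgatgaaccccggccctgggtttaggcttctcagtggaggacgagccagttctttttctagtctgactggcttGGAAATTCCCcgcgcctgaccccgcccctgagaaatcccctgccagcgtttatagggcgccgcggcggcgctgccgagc
Nfkbie: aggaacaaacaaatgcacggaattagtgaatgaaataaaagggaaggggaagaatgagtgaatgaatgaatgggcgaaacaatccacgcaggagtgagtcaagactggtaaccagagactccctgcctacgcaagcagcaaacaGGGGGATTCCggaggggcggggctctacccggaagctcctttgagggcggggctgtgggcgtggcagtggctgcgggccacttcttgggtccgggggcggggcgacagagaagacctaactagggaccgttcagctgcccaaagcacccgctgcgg
Tnfaip3: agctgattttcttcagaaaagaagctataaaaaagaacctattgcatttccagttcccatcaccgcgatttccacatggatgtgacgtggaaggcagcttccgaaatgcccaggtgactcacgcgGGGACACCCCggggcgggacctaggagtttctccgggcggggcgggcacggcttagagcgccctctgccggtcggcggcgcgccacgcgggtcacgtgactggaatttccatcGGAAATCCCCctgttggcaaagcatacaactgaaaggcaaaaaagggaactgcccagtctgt
Rela: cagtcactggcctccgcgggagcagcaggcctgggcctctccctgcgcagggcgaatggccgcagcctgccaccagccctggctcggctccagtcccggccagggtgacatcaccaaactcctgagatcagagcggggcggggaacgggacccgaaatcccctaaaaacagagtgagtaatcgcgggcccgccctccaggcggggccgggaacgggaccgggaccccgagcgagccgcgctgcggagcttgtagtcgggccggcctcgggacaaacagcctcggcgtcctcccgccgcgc

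The consensus was present in 5 of the 7 members that have a window in the table, Nfkb2, Rel, Nfkbia, Nfkbie and Tnfaip3. It was present in 8.19% of the 27025 windows that lie most upstream for their gene. The matches began 39 and 11 bases before the start in Nfkb2, 92 in Rel, 29 in Nfkbia, 106 in Nfkbie, and 125 and 12 in Tnfaip3. Of the Tnfaip3 windows 1 of 2 holds a match, and of those of Nfkb2 3 of 3. These letters were not found in the windows of Rela and Nfkbib. The E-box CACGTG, which is the same on both strands and is bound by Myc with its partner Max, was found in 1 of the 7 windows, that of Tnfaip3, 33 bases before the start, and in 7.24% of the most upstream windows. A match describes letters in the window and does not show binding. Nfkb1 and Relb have no window here.

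**Figure D1:**
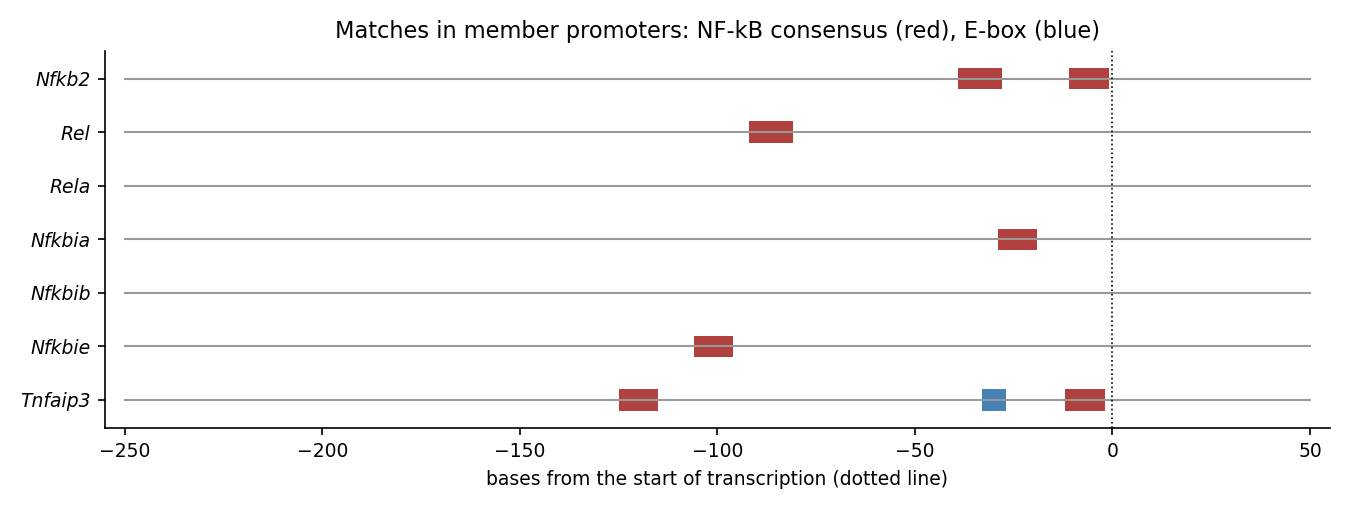
Positions of NF-kB consensus matches (red) and CACGTG (blue) in the 7 member promoter windows, in bases from the RefSeq start of transcription on the horizontal axis. Red marks stand in 5 of the 7 windows and the blue mark only in Tnfaip3.

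Replicate 1 libraries held 51065861 to 53453055 counts and replicate 2 libraries 30031100 to 34543633. Myc (chr15:61816946-61821929) had 33.8 and 41.4 CPM (counts scaled to the TMM-normalized library size) in wild type libraries, at 1164 and 1155 in the premalignant and at 1732 and 1578 in the malignant libraries. Summed pre-B cell markers, 11 genes including Vpreb1 and Rag1, were at 6865 and 7704 CPM in the wild type, 3390 and 3382 in the premalignant and 3168 and 2779 in the malignant libraries. Summed markers of neutrophils and monocytes, 11 genes, were at 1064 and 2362 CPM in the wild type, 320 and 347 in the premalignant and 80.4 and 151 in the malignant libraries. Of 11 pre-B cell markers, 10 fell from wild type to premalignant and 10 to malignant cells. Of 51 tested markers of other cell types, 36 fell and 0 rose from wild type to premalignant cells. From wild type to malignant cells 41 fell and 2 rose. Of all tested genes, 20.3% and 24.3% fell in these 2 comparisons. Summed markers of mature B cells, 6 genes, stayed within the wild type range of 411 to 638 CPM. The premalignant sums were 517 and 590, and the malignant sums 481 and 550. Of these 6 genes, 3 fell in premalignant cells, and 4 fell and 2 rose in malignant cells. The part of other cell types in the member results was not tested. In bulk RNA, fewer cells of a type and less RNA per cell cannot be told apart.

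Most of the 9 members had lower levels in premalignant than in wild type libraries. CPM values are relative to the scaled library size and do not give RNA per cell. By edgeR's quasi-likelihood test, 7 of the 9 members were lower (FDR of at most 0.1 and a log2 change of at least 0.5), and the background was 20.3% of all tested genes called lower and 39.3% called in either direction. Rela and Nfkbib did not pass. The median log2 change was −1.89 over the members and −0.08 over all tested genes.

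Nfkb2, the precursor of p52 in the noncanonical pathway (chr19:46379227-46386580), had 85.1 and 110 CPM in both wild type libraries and 16.0 and 15.1 in the premalignant libraries. The malignant libraries held 20.5 and 12.0 CPM. Both groups of Eμ-Myc libraries lay far below the wild type libraries and overlapped each other. The log2 change from wild type was −2.65 ± 0.29 (SE, adjusted p = 0.00276) in premalignant cells and −2.58 ± 0.29 (adjusted p = 0.00149) in malignant cells.

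Relb, the partner of p52 in that pathway (chr7:20191566-20214787), had 41.9 and 60.7 CPM in the wild type, 9.03 and 11.3 in the premalignant and 17.6 and 5.66 in the malignant libraries. The malignant libraries stood on either side of the premalignant ones. The log2 change from wild type was −2.34 ± 0.52 (adjusted p = 0.0205) in premalignant and −2.13 ± 0.52 (adjusted p = 0.0189) in malignant cells. Without wild type replicate 2 these were −2.04 and −1.84 and neither was called (adjusted p = 0.122 and 0.108), and the premalignant call was also lost without premalignant replicate 1 (adjusted p = 0.139) or 2 (adjusted p = 0.117). The malignant value was −3.17 without malignant replicate 1 and −1.51 without malignant replicate 2.

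Nfkb1, the precursor of p50 (chr3:135247619-135354511), had 212 and 219 CPM in the wild type, 121 and 126 in the premalignant and 147 and 195 in the malignant libraries. The premalignant libraries were the lowest, and the malignant ones lay between the other stages. The log2 change was −0.80 ± 0.17 (adjusted p = 0.0158) from wild type to premalignant, while the values of −0.33 (malignant vs. wild type, adjusted p = 0.148) and 0.47 (malignant vs. premalignant, adjusted p = 0.192) did not pass. The premalignant call was lost without premalignant replicate 1 (adjusted p = 0.138) or 2 (adjusted p = 0.128).

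Rel, which encodes c-Rel (chr11:23641514-23670970), had 41.6 and 50.9 CPM in the wild type, 30.4 and 32.3 in the premalignant and 22.8 and 22.9 in the malignant libraries. Its libraries were ordered by stage, with no overlap between stages. The log2 change was −0.56 ± 0.16 (adjusted p = 0.0435) in premalignant and −1.02 ± 0.16 (adjusted p = 0.00469) in malignant cells, both from wild type. The premalignant call was lost without wild type replicate 2 (log2 −0.41, adjusted p = 0.229), without premalignant replicate 1 (adjusted p = 0.257) or 2 (adjusted p = 0.224), and without malignant replicate 2, where the log2 value of −0.4996 fell short of the minimum change.

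Rela, which encodes p65, the usual partner of p50 (chr19:5637483-5648130), had 78.5 and 78.0 CPM in the wild type, 74.1 and 67.0 in the premalignant and 78.0 and 64.5 in the malignant libraries. These values lay in a narrow range across all 6 libraries. The log2 changes from wild type were −0.15 ± 0.15 (adjusted p = 0.478) in premalignant and −0.14 ± 0.15 (adjusted p = 0.506) in malignant cells, and neither passed the test.

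Nfkbia, which encodes IkBα (chr12:56590398-56593634), had 174 and 225 CPM in the wild type, 53.7 and 54.1 in the premalignant and 50.2 and 48.4 in the malignant libraries. All 4 Eμ-Myc libraries were lower than either wild type library. The log2 change was −1.89 ± 0.16 (adjusted p = 0.00193) in premalignant and −2.02 ± 0.16 (adjusted p = 0.000744) in malignant cells.

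Nfkbie, which encodes IkBε (chr17:45692665-45700118), had 103 and 124 CPM in the wild type, 18.8 and 22.4 in the premalignant and 15.4 and 11.7 in the malignant libraries. The stages did not overlap. The log2 change from wild type was −2.47 ± 0.21 (adjusted p = 0.00188) in premalignant and −3.07 ± 0.21 (adjusted p = 0.000628) in malignant cells.

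Tnfaip3 (chr10:18720716-18735463) had the largest fall among the members, with 84.1 and 177 CPM in the wild type, 9.36 and 13.5 in the premalignant and 6.25 and 3.15 in the malignant libraries. The wild type libraries differed from each other by 2.11-fold, and all Eμ-Myc libraries were lower than both. The log2 change from wild type was −3.52 ± 0.49 (adjusted p = 0.0051) in premalignant and −4.78 ± 0.52 (adjusted p = 0.00142) in malignant cells. Without wild type replicate 2 these were −2.88 and −4.15, and both were still called.

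Nfkbib, which encodes IkBβ (chr7:29543270-29552531), was the member with values above wild type. It had 23.8 and 26.5 CPM in the wild type, 32.2 and 33.2 in the premalignant and 38.9 and 30.7 in the malignant libraries. Every Eμ-Myc library was higher than either wild type library, but the log2 values of 0.38 (premalignant, adjusted p = 0.149) and 0.47 (malignant, adjusted p = 0.0742, below the minimum change of 0.5) were not called. Without malignant replicate 2 Nfkbib was called higher in malignant than wild type cells (log2 0.66, adjusted p = 0.0112).

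**Figure D2:**
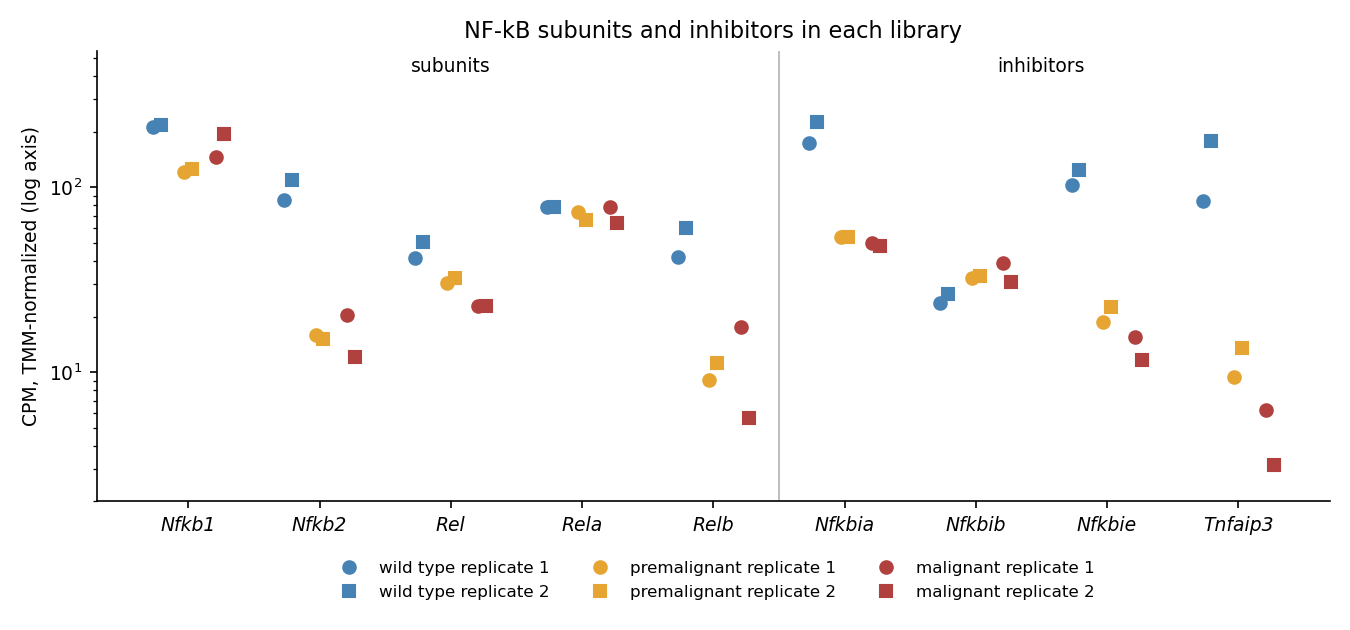
CPM (log axis) of the 9 members in each library, with stages in colours and replicates as circles and squares. Tnfaip3 falls from 84.1 and 177 CPM in wild type to 6.25 and 3.15 in malignant libraries, while Rela stays between 64.5 and 78.5.

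In malignant libraries 6 of the 9 members had lower levels than in wild type libraries, by the same test (background 24.3% called lower and 49.2% in either direction). These were Nfkb2, Rel, Relb, Nfkbia, Nfkbie and Tnfaip3, all of which were also lower in premalignant cells. The comparisons share the wild type libraries, and 16.4% of all tested genes were called lower in both.

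No member passed edgeR's test between malignant and premalignant cells, where the background was 6.18%. At an unadjusted p under 0.05 there were 4 members, 3 of them lower in malignant cells, and 19.9% of all tested genes. DESeq2 called 2, Nfkbie and Tnfaip3, both lower, with 2169 calls over all genes, 1028 of them lower. In edgeR, Tnfaip3 had a log2 change of −1.26 ± 0.47 (adjusted p = 0.207) and Nfkbie one of −0.60 ± 0.20 (adjusted p = 0.179). In simulated counts DESeq2 called many more unchanged genes than edgeR did. That simulation changed few genes, and only in malignant cells, so it does not tell whether these 2 calls are false. With no filter on low counts edgeR called the same 2 genes (adjusted p = 0.0654 for Nfkbie and 1.4e-06 for Tnfaip3), with 2810 calls over all genes. Leaving out malignant replicate 1 gave 3 calls (Nfkb1 higher, Nfkbie and Tnfaip3 lower) and leaving out malignant replicate 2 gave 1 (Relb higher), while calls over all genes rose from 1031 to 2668 and 3805.

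**Figure D3:**
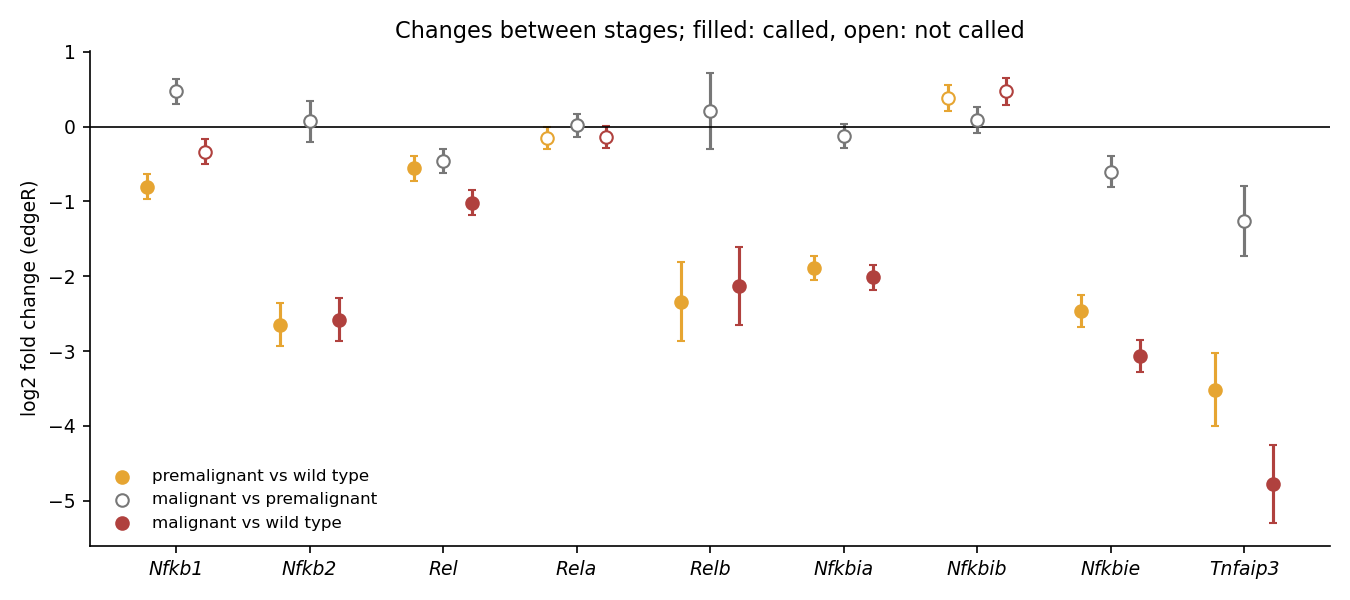
Log2 fold change of each member in the 3 comparisons, with bars of 1 SE and filled points for calls. Filled points stand below 0 for 7 members in premalignant and 6 in malignant cells against wild type, and no point of malignant against premalignant cells is filled.

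Per length of the gene, the makeup of the family differed between wild type and Eμ-Myc libraries. Between premalignant and malignant libraries, the shares of Nfkb2, Rela, Relb and Nfkbia in subunit or IkB RNA overlapped. Those of Nfkb1, Rel, Nfkbib and Nfkbie did not. The summed level of the 5 subunits was 125 and 141 RPKM (CPM per kilobase of exon) in the wild type, 70.5 and 70.0 in the premalignant and 78.3 and 77.7 in the malignant libraries. That of the 3 IkB genes was 164 and 206 RPKM in the wild type, between 56.6 and 58.9 in the premalignant and between 49.7 and 56.1 in the malignant libraries. The ratio of IkB to subunit RNA was 1.39 ± 0.10 (SD, n = 2) in the wild type, 0.822 ± 0.027 in the premalignant and 0.678 ± 0.055 in the malignant cells, with no overlap between stages. These ratios were not tested.

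Rela made up 20.3 to 23.2% of subunit RNA in the wild type, 35.2 to 38.7% in the premalignant and 30.6 to 36.7% in the malignant libraries, while Nfkb2 made up 20.8 to 23.6%, 6.56 to 6.89% and 4.71 to 7.95%. Nfkbib made up 5.93 to 6.70% of IkB RNA in wild type, against 26.0 to 26.2% in premalignant and 28.5 to 32.0% in malignant libraries. By RPKM, Nfkbia was the highest member in wild type and premalignant cells and was separate from the next member in both. In malignant cells Nfkb1 and Nfkbia overlapped at the top.

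**Figure D4:**
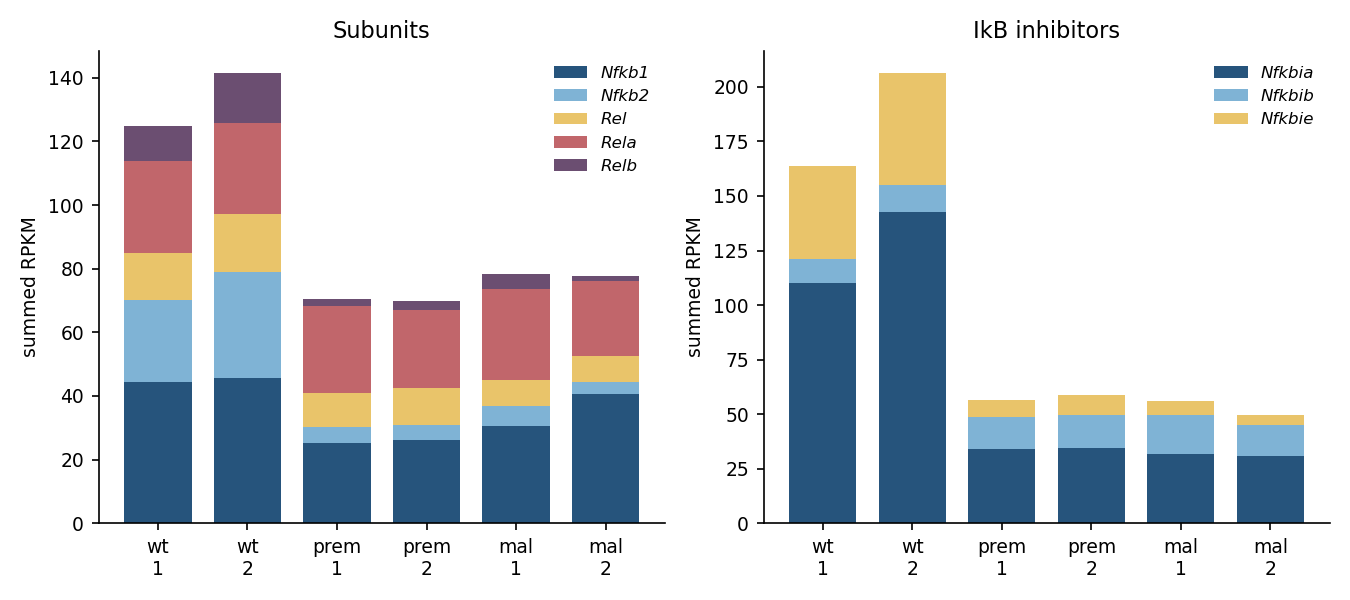
Summed RPKM of the 5 subunit genes (left) and the 3 IkB genes (right) in each library, with colours for the genes. The subunit bars reach 125 and 141 in wild type and between 70.0 and 78.3 in the Eμ-Myc libraries, and the IkB bars reach 164 and 206 against at most 58.9.

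The wild type replicates differed for the members by a median of 0.288 in absolute log2 ratio, and by 0.265 over all tested genes. The median log2 ratio of replicate 2 to replicate 1 was 0.288 over the members and −0.00297 over all tested genes. Of the 9, 8 had a higher CPM in replicate 2, by up to 2.11-fold for Tnfaip3 (1.45-fold for Relb, 1.30-fold for Nfkbia), and Tnfaip3 was the only one past 2-fold, as were 9.19% of all tested genes. The size of its difference was at the 91.9th percentile of all tested genes. In premalignant cells none was past 2-fold (background 8.83%), and in malignant cells Relb was, at 3.11-fold higher in replicate 1 (background 21.9%). Replicate 2 was higher for 7 of the 9 in premalignant and 2 of the 9 in malignant cells. The median log2 ratios were 0.060 and −0.342 over the members and 0.0187 and 0.0105 over all tested genes.

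Immediate-early genes, which respond within minutes to stimulation, differed between the wild type replicates. Of 19 such genes, 15 were at least 2-fold higher in wild type replicate 2 than in replicate 1. All 19 were higher, with a median of 5.64-fold. Of all tested genes, 9.19% were past 2-fold in either direction. Higher in replicate 2 were 17 of the 19 in premalignant and 4 of the 19 in malignant cells. Summed markers of other cell types also differed between the wild type replicates, at 294 and 1084 CPM for erythroid and 210 and 65.2 for NK cells. Jun, a subunit of AP-1, was at 27.3 and 1179 CPM in both wild type libraries, Jund at 163 and 917, and Btg2, an antiproliferative gene, at 525 and 790. Between premalignant and wild type cells 13 of the 19 immediate-early genes were lower (background 20.3%). Fewer passed without wild type replicate 2, as over all genes, and their median log2 change went from −2.73 to −0.76. The part of the replicate difference in the member results was not tested. Without wild type replicate 2, 5 members were still called lower in premalignant cells (all but Rel and Relb of the 7), and 5 in malignant cells (all but Relb of the 6).

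**Figure D5:**
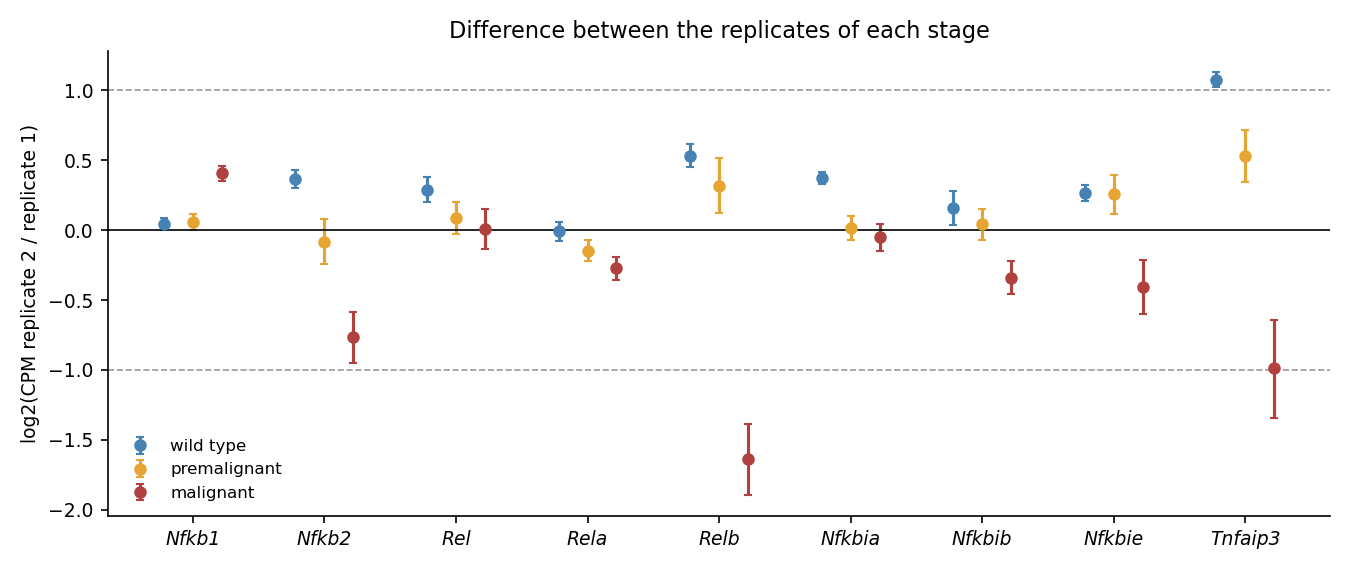
Log2 ratio of replicate 2 to replicate 1 for each member in each stage, with 95% counting intervals and dashed lines at 2-fold. Tnfaip3 is at 1.08 in wild type, and Relb at −1.64 in malignant cells.

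Of all 16683 tested genes, 3169 were called higher in premalignant than wild type cells. From premalignant to malignant cells 3.73% were called higher and 2.45% lower, and from wild type to malignant cells 24.9% were called higher. Leaving out wild type replicate 2 lowered the count of all genes called lower, from 3394 to 1545 for premalignant cells and, for malignant cells, from 4059 to 2940.

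Among the genes that act above the subunits, 27 kinases and adaptors were tested. Of these 27, 1 rose and 7 fell from wild type to premalignant cells, and 4 rose and 8 fell from wild type to malignant cells. Between malignant and premalignant cells 2 were higher in malignant cells and none lower. The background over all tested genes was 39.3% called in premalignant and 49.2% in malignant cells against wild type. It was 6.18% between malignant and premalignant cells. Traf3, an adaptor that restrains the noncanonical pathway, had 69.9 and 84.2 CPM in the wild type, 122 and 132 in the premalignant and 181 and 193 in the malignant libraries. Map3k14, the NF-kB-inducing kinase of that pathway, was at 41.2 and 50.6, 26.0 and 24.7, and 18.0 and 22.1 CPM in the same order. Traf3 rose (log2 1.28 ± 0.15, adjusted p = 0.00164) and Map3k14 fell (log2 −1.19 ± 0.19, adjusted p = 0.00436) from wild type to malignant cells. Malt1, a paracaspase of antigen receptor signalling, averaged 113 CPM in the wild type, 61.5 in the premalignant and 102 in the malignant libraries. It fell from wild type to premalignant cells (log2 −0.87 ± 0.17, adjusted p = 0.0131). It was higher in malignant than in premalignant cells (log2 0.73 ± 0.17, adjusted p = 0.0864). No kinase or adaptor was called in that comparison without wild type replicate 1 or without wild type replicate 2, where calls over all genes fell from 1031 to 244 and 239. Btrc, a subunit of the ubiquitin ligase that marks IkB, was below wild type in malignant cells (log2 −1.13 ± 0.32, adjusted p = 0.0322).

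Of 14 other inhibitors and IkB-like genes (background 39.3%, 6.18% and 49.2% called in the 3 comparisons), 1 rose and 7 fell from wild type to premalignant cells, 1 was higher in malignant than in premalignant cells, and 3 rose and 5 fell from wild type to malignant cells. Bcl3, an IkB-like nuclear cofactor, had 15.8 and 20.8 CPM in the wild type, 1.16 and 0.934 in the premalignant and 1.40 and 0.645 in the malignant libraries, a log2 change of −4.12 ± 0.46 (adjusted p = 0.00295) in premalignant cells. Nfkbiz, another nuclear IkB, fell in premalignant cells by 3.05 on the log2 scale (adjusted p = 0.00276). Pdlim2, a ligase for p65, had 16.7 and 19.6 CPM in the wild type, 4.54 and 5.21 in the premalignant and 20.1 and 25.3 in the malignant libraries. It fell from wild type to premalignant cells (log2 −1.90 ± 0.23, adjusted p = 0.00373) and rose again in malignant cells (log2 2.22 ± 0.24, adjusted p = 0.0171). Nkrf, a repressor of NF-kB-dependent genes, rose from 18.4 and 11.5 CPM in wild type to 44.0 and 42.0 in premalignant libraries (log2 1.52 ± 0.24, adjusted p = 0.00689).

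Of 15 tested receptors, 1 rose and 11 fell from wild type to premalignant cells, 4 were higher in malignant than in premalignant cells, and 2 rose and 7 fell from wild type to malignant cells. The background was 20.3% lower in premalignant and 24.3% in malignant cells, and 3.73% higher in malignant than in premalignant cells. Fewer receptors passed as lower without wild type replicate 2, as over all genes. Their median log2 changes were −1.40 (premalignant) and −0.66 (malignant) in the full fit, and −1.27 and −0.58 over 16 receptors without that library. Tlr1, a receptor for bacterial lipopeptides, had 2.73 and 5.69 CPM in the wild type, 1.18 and 2.02 in the premalignant and 54.2 and 32.3 in the malignant libraries. It rose from premalignant to malignant cells by 4.77 ± 0.53 (log2, adjusted p = 0.0199), and Tlr2, its partner, by 1.94 ± 0.26 (adjusted p = 0.0271).

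Of 6 tested ligands, 4 fell from wild type to premalignant and 4 to malignant cells (background 20.3% and 24.3% lower). Fewer ligands passed without wild type replicate 2, as over all genes. Their median log2 changes were −3.22 and −2.62 in the full fit, and −2.26 and −1.21 over 7 ligands without that library. Ltb, which encodes lymphotoxin beta, had 23.2 and 33.5 CPM in the wild type, 1.92 and 2.92 in the premalignant and 3.12 and 0.681 in the malignant libraries. Its log2 change from wild type was −3.55 ± 0.69 (adjusted p = 0.0136) in premalignant cells.

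Of 21 tested NF-kB target genes, 14 fell and 1 rose from wild type to premalignant cells, and likewise to malignant cells (background 20.3% and 24.3% lower). Fewer targets passed as lower without wild type replicate 2, as over all genes. Their median log2 changes were −1.65 and −2.04 in the full fit, and −1.32 and −1.72 without that library. Bcl2l1, which encodes the survival protein Bcl-xL, had 169 and 177 CPM in the wild type, 20.1 and 20.2 in the premalignant and 9.71 and 10.6 in the malignant libraries. It fell from wild type to premalignant cells (log2 −3.11 ± 0.14, adjusted p = 0.0013) and again to malignant cells (log2 −0.99 ± 0.13, adjusted p = 0.0259). Sod2, the mitochondrial superoxide dismutase, rose from 34.6 and 28.4 CPM in wild type to 72.5 and 77.1 in premalignant libraries (log2 1.25 ± 0.16, adjusted p = 0.00418). The chemokine Ccl5 was at 28.5 and 13.3 CPM in wild type and between 0.422 and 0.800 in the other 4 libraries. Ccl3 and Ccl4, also chemokines, had 0 counts in both malignant libraries, and their wild type levels were 1.52 and 2.38 CPM and 2.17 and 4.02 CPM. Summed NK cell markers were at 210 and 65.2 CPM in wild type, 10.5 and 3.22 in premalignant and 3.68 and 4.80 in malignant libraries. Summed T cell markers were at 96.2 and 50.6, 35.3 and 17.1, and 2.13 and 17.1 CPM in the same order. The part of other cell types in the levels of these target genes was not tested.

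Across the 6 libraries, the levels of Nfkb2, Nfkbia, Nfkbie and Tnfaip3 varied alike, with Pearson's r between 0.96 and 0.99 for log2(CPM + 1). These 4 were chosen after their values were seen, and pairs with other members reached the same range. Nfkb2 with Relb had r = 0.971 and Rel with Tnfaip3 r = 0.970, while Relb with Nfkbia had 0.928 and Rel with Nfkb2 0.871. The libraries share stages and depths, and r is given as a description over 6 points. Among 9572 genes of at least 10 CPM in a stage, the closest to Nfkb2 was H2-Q4 (r = 0.999) and the closest to Tnfaip3 was Wdr45 (r = 0.999). The closest to Relb was Rgs2 (r = 0.997), to Rela Sft2d1 (r = 0.983) and to Nfkbib Fau (r = 0.998). The number of genes with r of at least 0.95 ran from 14 for Rela to 629 for Nfkbie.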

How the data were processed

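RNA-seq of 6 libraries, 2 for each stage, was used with groups and replicate numbers from the labels. The study describes them as biological replicates from individual animals. Reads (50-bp, single-end) were aligned with TopHat and the authors deposited raw HTSeq counts per Ensembl gene without normalization; the labels name mm9. Deposited DEseq tables of the authors' comparisons were not used. Symbols, coordinates and exon lengths are from GENCODE vM1 (NCBIM37), which may differ from the annotation used for counting.

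Counts were fitted in edgeR 4.0.16 (R 4.3.3) by the quasi-likelihood test, with TMM, the default filter on low counts and 1 fit over all libraries. The SE of a log2 change was derived from that test, as its size divided by the square root of the F statistic. Calls used the thresholds of the study, an FDR cutoff of 0.1 with a log2 change of 0.5 or more in size. A count of 0 allows up to 3 counts, between 0.0526 and 0.108 CPM, for counting error only. Alternatives were upper-quartile and median-ratio scaling, other filters and thresholds, DESeq2 1.42.0, the replicate number as a block, only the stages compared and leaving out each library.

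The scripts were tested on simulated data. The simulation first drew counts with gene-wise dispersions, where edgeR recovered a minority of the changed genes and made more false calls than its FDR allows. A second simulation with trended dispersions was added after that was seen, and both are kept. Each changed few genes, and only in malignant cells. Under both, DESeq2 made many more false calls, also where nothing was changed.

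The members and lists were chosen with earlier results of these data known. Genes named beside the members were, for each list and comparison, up to 2 called genes with the largest rise and fall among those whose higher stage averaged 1 CPM or more, and the 3 immediate-early genes of highest level. For likeness the 3 genes of highest r were found, of which the first is given for 5 members. Some genes that this rule names are not reported here.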

Additional observations from a re-analysis of the deposited data

How the results depend on the processing

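With 2 libraries a stage, calls rested on few libraries. In simulated counts with gene-wise dispersions edgeR made more false calls than its FDR allows. That simulation changed few genes, and only in malignant cells, so it does not give the false share of the calls here. Without 1 library, members called in premalignant vs. wild type cells numbered 4 to 7 (4 without either premalignant library, 7 in the full fit) and all genes called 2094 to 8455 (6563 in the full fit, 4282 at an absolute log2 change of at least 1). In malignant vs. premalignant cells they numbered 0 to 3 (2 with no filter on low counts and 2 with DESeq2) and all genes 0 to 3805 (1031 in the full fit, 2810 with no filter, 258 with only the stages compared, 2169 with DESeq2, 407 at an FDR of 0.05). In malignant vs. wild type cells they numbered 5 to 8 and all genes 5945 to 9200. Upper-quartile scaling also called Nfkb1 lower there (log2 −0.50).

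Log2 changes that turned in sign were all near 0 or rested on 1 malignant library. In malignant vs. premalignant cells Nfkb2 was −0.013 with upper-quartile scaling and −0.37 without malignant replicate 1, while Relb was −0.84 and Nfkbib −0.093 without that library (without malignant replicate 2, Nfkb2 was 0.36, Rela 0.11, Relb 0.76 and Nfkbib 0.22). Rela was −0.067 with upper-quartile scaling, −0.0068 with median-ratio factors, −0.014 at 10 counts in every library, −0.00162 with only the stages compared, −0.015 with DESeq2, −0.06 without premalignant replicate 2 and −0.13 without malignant replicate 1. In malignant vs. wild type cells Rela was −0.27 without malignant replicate 1 and 0.020 without malignant replicate 2. The causes were not tested.

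Same-numbered libraries deviated together (r = 0.509, 0.257 and 0.186 over genes in the 3 comparisons), but the labels give only a number and 2 pairs, so the numbers are not taken as a pairing. With the replicate number as a block, members called were 7, 0 and 6 and all genes called 6575, 940 and 8224.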
